A study of Arabidopsis thaliana with 27 samples.

Results

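EXPA4, EXPA8, EXPB3 and EXPB5 are 4 expansin genes of *Arabidopsis thaliana* that were chosen by name, with earlier results of these data known. They are EXPA4 (AT2G39700), EXPA8 (AT2G40610), EXPB3 (AT4G28250) and EXPB5 (AT3G60570), and each was read by 1 of the 22810 probe sets of the array. The platform's annotation names 15 other expansin genes on the array, so these are 4 of 19 named members of the superfamily, and 4 of the 13356 genes that the annotation names with a probe set of their own. All 4 passed the filter on low signal, which kept 14028 probe sets.

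Expansins are secreted proteins that loosen plant cell walls without cutting their polymers, and they act best at the acid wall pH that plasma membrane proton pumps set up. The superfamily holds alpha-expansins (EXPA), beta-expansins (EXPB) and the expansin-like families EXLA and EXLB, and it is known for its part in cell elongation. Beta-expansins are well known as abundant pollen proteins in grasses, while individual roles of most Arabidopsis members in the stamen are less well described. Stamen filaments elongate and anthers open shortly before the flower does, and jasmonate is needed for both.

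The samples were stamens measured on 27 Affymetrix ATH1 arrays, 1 array per sample. Mutant *opr3* plants lack the reductase that takes 12-oxo-phytodienoic acid (OPDA) towards jasmonate, and their stamens stay short and the plants male sterile. Stage 12 flower buds of *opr3* received 0.03% methyl jasmonate, written JA in the sample titles and here, or 0.03% OPDA, and stamens were taken at 0.5, 2, 8 and 22 h. Untreated *opr3* stamens (3 arrays) served as time 0 for both agents, no mock-treated array was part of the set, and 1 array came from untreated wild-type stamens of the Ws background. All plants grew on soil in continuous light at 22 degrees C. Treated groups held 3 arrays, except OPDA at 8 h with 2 and JA at 0.5 h, where replicates 1 and 2 were identical at 100% of probe sets and were counted once. The next most alike pair of arrays was identical at 0.943% of probe sets. The array titled as replicate 3 of JA at 2 h names *opr2* while its treatment note names *opr3*, and it stayed with the JA arrays. The labels do not tie replicates to separate plantings, so that p-values rest on array-to-array spread that may be technical.

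Values are MAS5 signals on a linear scale, and the arrays' median signals lay between 47.5 and 56.9. Log2 changes are differences of log2(signal + 16) from 1 limma model over the 9 *opr3* groups. A gene is called where the adjusted p (Benjamini-Hochberg within a comparison, two-sided) is under 0.05. Levels were compared within a probe set only. Bulk stamens cannot separate more cells of a kind from more RNA per cell. Of 7 stamen identity markers only SPL, a regulator of sporogenous tissue, was named on the array, and its signal was 66.0 to 134.4 untreated. The pair of named carpel markers, SPT and INO, summed to 83.3 to 221.1 over all 27 arrays, and the 4 named green tissue markers to 1718.8 to 3882.4, so neither list was at 0.

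After 22 h of JA, EXPB5 and EXPA8 rose and EXPA4 and EXPB3 were not called. EXPB5 went from a mean signal of 125 ± 89.5 (SD, n = 3) to 1971 ± 727 (SD, n = 3), which is 15.7-fold between the means. EXPA8 went from 555 ± 230 to 1532 ± 348 (SD, n = 3 each), or 2.76-fold. After 22 h of OPDA the same 2 genes rose, to 660 ± 396 for EXPB5 and 961 ± 182 for EXPA8 (SD, n = 3 each).

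**Figure D1:**
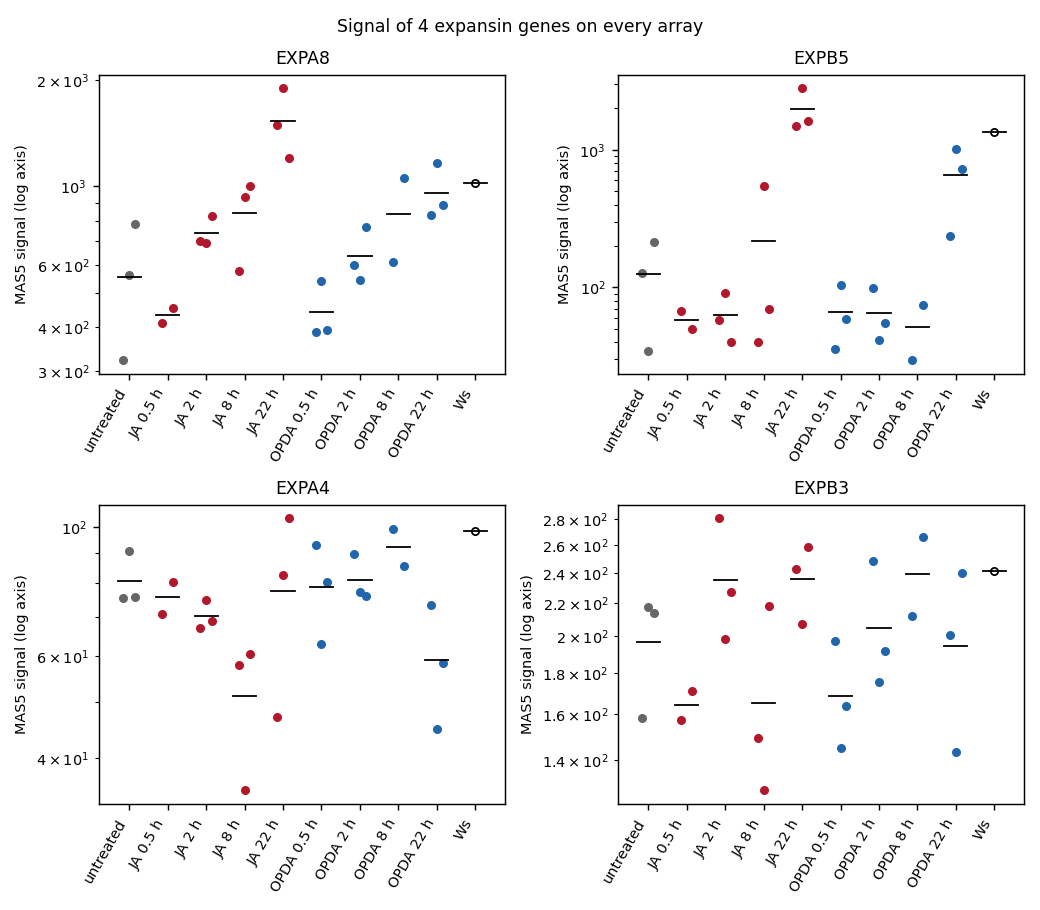
MAS5 signal (log axis) of EXPA8, EXPB5, EXPA4 and EXPB3 on every distinct array, by group (grey untreated *opr3*, red JA, blue OPDA, open circle Ws), with a bar at each group's mean. All JA 22 h arrays of EXPB5 (1495.3 to 2808.2) and EXPA8 (1206.6 to 1898.9) lie above all untreated arrays, while for EXPA4 and EXPB3 these groups overlap.

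EXPB5, a beta-expansin, had untreated signals of 127.5, 34.6 and 213.6 in replicates 1, 2 and 3. JA gave 67.0 and 49.7 at 0.5 h, and 57.5, 90.5 and 40.3 at 2 h. Up to 2 h the JA arrays thus read 90.5 or less, and treated and untreated groups overlapped. At 8 h of JA the signals were 40.3, 543.9 and 69.9, so that replicate 2 alone stood above the untreated arrays. The JA 22 h signals were 1495.3, 2808.2 and 1609.9, and no array of any other *opr3* group reached the lowest of them. OPDA gave 35.4, 104.5 and 58.6 at 0.5 h, 98.8, 41.7 and 55.3 at 2 h, and 29.6 and 74.1 at 8 h. Those OPDA groups overlapped the untreated one. The OPDA 22 h signals were 236.9, 1021.6 and 720.3, above all untreated arrays and below all JA 22 h arrays.

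The limma model gave EXPB5 a log2 change of 4.01 (SE 0.66, 95% interval 2.64 to 5.38, adjusted p = 6.3e-05) at 22 h of JA over untreated. The change was 2.29 (SE 0.66, interval 0.92 to 3.66, adjusted p = 0.03) at 22 h of OPDA. Most of the rise fell between 8 and 22 h. The step from 8 to 22 h was 3.78 with JA (SE 0.66, adjusted p = 0.00028) and 3.17 with OPDA (SE 0.74, adjusted p = 0.013). At 8 h the limma change over untreated was 0.23 with JA (interval -1.14 to 1.60, adjusted p = 0.87) and it was -0.77 (adjusted p = 0.5) when replicate 2 of JA at 8 h was left out together with replicate 2 of both 22 h groups. Those same 3 arrays left out, the JA 22 h change was 3.73 (adjusted p = 2.8e-05), and the OPDA 22 h change of 1.86 was at the threshold (adjusted p = 0.05) and not called.

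EXPA8, an alpha-expansin, was bright from the start, with untreated signals of 322.3, 560.3 and 782.0. JA gave 410.0 and 453.8 at 0.5 h, 699.3, 693.5 and 823.5 at 2 h, and 576.3, 935.8 and 1005.9 at 8 h. All of these groups overlapped the untreated arrays, whose own spread was wide. The JA 22 h signals were 1490.6, 1898.9 and 1206.6, higher than on any other *opr3* array. OPDA gave 386.1, 540.4 and 393.1 at 0.5 h, 597.9, 544.1 and 767.1 at 2 h, and 611.0 and 1057.5 at 8 h. At 22 h OPDA gave 828.4, 1168.7 and 886.5. The OPDA 22 h arrays lay above all untreated arrays, by a narrow gap at the lowest of them, and overlapped the OPDA 8 h arrays.

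For EXPA8 the limma change over untreated was 1.5 (SE 0.27, interval 0.94 to 2.06, adjusted p = 0.00015) at 22 h of JA and 0.85 (SE 0.27, interval 0.29 to 1.40, adjusted p = 0.044) at 22 h of OPDA. The step from 8 to 22 h was 0.87 with JA (limma adjusted p = 0.024) and 0.24 with OPDA (adjusted p = 0.7). The mean signal was 739 at 2 h and 839 at 8 h of JA against 555 untreated, but neither change was called (log2 0.48, adjusted p = 0.64, and 0.63, adjusted p = 0.15). That 8 h change rested on single arrays, at 0.91 (called, limma adjusted p = 0.033) without untreated replicate 3, the brightest of its group, and at 0.295 (adjusted p = 0.62) without replicate 1, the dimmest.

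**Figure D2:**
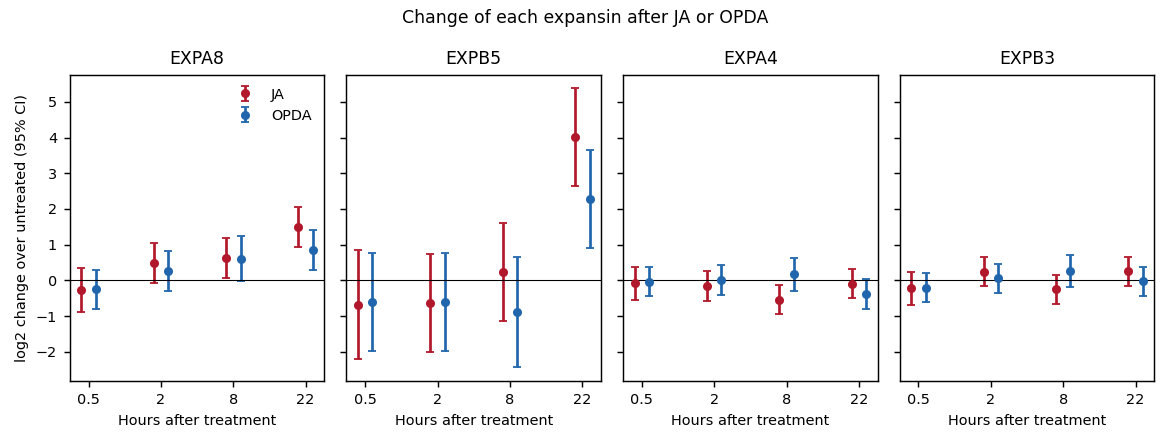
Log2 change over untreated *opr3* stamens at 0.5, 2, 8 and 22 h after JA (red) or OPDA (blue) for EXPA8, EXPB5, EXPA4 and EXPB3, with 95% intervals from the limma model. The intervals of EXPB5 (4.01 after JA and 2.29 after OPDA) and EXPA8 (1.5 and 0.85) lie above 0 at 22 h.

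At 22 h of JA over untreated, 2 of the 4 genes were thus called, both higher, where 39.6% of tested probe sets were called in either direction, 13.3% higher and 26.3% lower. For OPDA at 22 h the count was again 2 of 4, both higher, against 11.6% called, 5.70% higher and 5.91% lower. The counts for JA and OPDA use the same untreated arrays. The 4 genes were chosen with earlier results of these data known, so the counts are not those of an independently picked set. From 8 to 22 h, 2 of 4 rose with JA (20.3% of probe sets called, 8.13% higher) and 1 of 4, EXPB5, with OPDA (6.27% called, 3.94% higher). With so many probe sets called at 22 h of JA, 2 of 4 genes in either direction is close to the share over the whole array, and the rises are described here gene by gene. The median log2 change of all tested probe sets at 22 h of JA was -0.21, and -0.06 when arrays were centred on their medians. Under that centring EXPB5 and EXPA8 were still called higher at 22 h of JA. The array-wide split at 22 h was 1859 higher and 3693 lower with JA and 799 and 829 with OPDA, and with centred arrays it was 2274 and 2176 with JA and 992 and 516 with OPDA. At 8 h of JA over untreated the split was 669 and 738, or 855 and 451 with centred arrays. Between JA and OPDA at 22 h it was 912 and 1712, or 1076 and 1320 with arrays scaled to the 75th percentile, and the step from 2 to 8 h of JA gave 304 and 429, or 355 and 298 with centred arrays.

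No expansin of the 4 was called over untreated at earlier times. Few probe sets were called then: with JA 0.114% at 0.5 h, then 2.22% at 2 h, then 10% at 8 h, and with OPDA 0.00713%, 0.0214% and 0% at the same times. The step from 2 to 8 h likewise called none of the 4, with 5.23% of probe sets called for JA and 0% for OPDA. The OPDA 8 h group held 2 arrays. The median half-width of the 95% interval was 0.42 log2 units between groups of 2 and 3 arrays. Comparisons of the same 2 arrays with JA at 8 h and with OPDA at 22 h called 7.81% and 6.27% of probe sets. Why no probe set was called over untreated at 8 h of OPDA was not tested.

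EXPA4, an alpha-expansin, gave signals of 75.4, 91.0 and 75.8 untreated and was lowest at 8 h of JA, with 57.9, 35.2 and 60.4. At 8 h of OPDA it gave 99.2 and 85.7. The JA 8 h arrays did not overlap the untreated or the OPDA 8 h arrays. The limma changes nevertheless missed the threshold, at -0.55 over untreated (interval -0.96 to -0.13, adjusted p = 0.088) and -0.71 against OPDA at 8 h (interval -1.17 to -0.25, adjusted p = 0.052). Over 41 alternatives the adjusted p of the second ranged from 0.022 to 0.45, and 8 of them called it. Replicate 1 of JA at 22 h decided other calls of EXPA4: without it the 8 h change over untreated was called (-0.55, adjusted p = 0.041), and EXPA4 was called higher at 22 h of JA than at 8 h of JA (0.71, adjusted p = 0.01) and than at 22 h of OPDA (0.55, adjusted p = 0.048). At 22 h the JA arrays were spread over 47.1, 82.5 and 103.4, and OPDA arrays read 73.4, 44.9 and 58.4. The agents overlapped, and the OPDA arrays lay below all untreated ones. The 22 h changes over untreated were -0.09 for JA (adjusted p = 0.73) and -0.38 for OPDA (adjusted p = 0.22). Signals at 0.5 and 2 h ran from 62.8 to 93.0 with either agent, and the JA 2 h arrays alone among those groups did not overlap the untreated arrays (67.1 to 74.9).

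EXPB3, a beta-expansin like EXPB5, had group mean signals from 164 at 0.5 h of JA to 239 at 8 h of OPDA. Its untreated signals were 158.3, 217.7 and 214.0, and its JA 22 h signals were 242.6, 207.4 and 258.3. OPDA at 22 h gave 200.5, 143.5 and 240.0. All 3 groups overlapped, and the limma change over untreated was 0.25 for JA (interval -0.15 to 0.66, adjusted p = 0.32) and -0.03 for OPDA (interval -0.44 to 0.38, adjusted p = 0.95). Signals were 144.9 to 197.3 at 0.5 h and 175.2 to 280.6 at 2 h over both agents, and 212.2 and 266.0 at 8 h of OPDA. JA signals at 8 h were 149.1, 128.4 and 218.2, and the step from 8 to 22 h of JA was 0.50 (SE 0.20, adjusted p = 0.076). In that comparison same-numbered arrays deviated together, and with the replicate number as a block the same step was called (limma adjusted p = 0.026). It was also called without JA 8 h replicate 3 (0.70, adjusted p = 0.02).

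The design also sets JA against OPDA at each time. At 22 h both risen genes were higher with JA on every array: EXPB5 by 1.72 on the log2 scale (SE 0.66, interval 0.35 to 3.09, limma adjusted p = 0.075) and EXPA8 by 0.66 (SE 0.27, interval 0.10 to 1.21, adjusted p = 0.098). Neither passed the threshold in the unblocked model, where 18.7% of probe sets were called. Same-numbered arrays deviated together in this comparison too, and with the replicate number as a block both were called (limma adjusted p = 0.046 for EXPB5 and 0.032 for EXPA8). A block for scan day called EXPB5 but not EXPA8 (limma adjusted p = 0.036), and a block for chip lot called EXPA8 but not EXPB5 (0.044). Same-numbered 22 h arrays also shared a scan day, with 1 array of each agent on each of 3 days. JA exceeded OPDA in these pairs by 2.58, 1.45 and 1.14 for EXPB5 and by 0.84, 0.69 and 0.44 for EXPA8. As the 2 groups did not overlap, the sign of these differences was fixed. EXPA4 and EXPB3 differed by 0.29 (interval -0.12 to 0.70) and 0.28 (interval -0.13 to 0.69), and were not called. At 0.5, 2 and 8 h none of the 4 was called between the agents, where 0.0713%, 1.90% and 7.81% of probe sets were. The bounds at 8 h are wide for EXPB5, with a difference of 1.12 (interval -0.41 to 2.65).

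In order of mean log2 signal, EXPB5 stood highest at 22 h of JA, then 22 h of OPDA, then 8 h of JA, and lowest at 8 h of OPDA. The first place over the second and the second over the third each missed the threshold between neighbours (limma adjusted p = 0.075 and 0.074), and none of the lower neighbours was called apart (adjusted p from 0.87 to 1). EXPA8 had the same 3 groups on top and JA at 0.5 h at the bottom, and no neighbouring groups were called apart (lowest adjusted p = 0.098). EXPA4 was ordered from OPDA at 8 h down to JA at 8 h, with neighbours at adjusted p of 0.55 or more. EXPB3 ran from OPDA at 8 h down to JA at 8 h as well, with neighbours at 0.59 or more.

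The Ws array gives 1 value per gene and carries no test. Its EXPB5 signal was 1337.0, above every OPDA 22 h array and below every JA 22 h array. Its EXPA8 signal of 1023.3 fell inside the OPDA 22 h range and also below every JA 22 h array. Both were above all untreated *opr3* arrays, by 3.51 for EXPB5 and 0.95 for EXPA8 over the untreated mean on the log2 scale. The Ws signals of EXPA4 (98.4) and EXPB3 (241.4) were also above the untreated range, by smaller differences of 0.25 and 0.29.

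The changes were also read within scan days and with single arrays left out. The 3 untreated arrays were scanned on 2 of the 5 scan days. Within the day that held replicates 1 and 2, the JA 22 h change over untreated was 5.05 for EXPB5 and 2.12 for EXPA8, and within the day that held replicate 3 it was 2.82 and 0.62, with 1 JA array in each. For OPDA at 22 h the values were 3.61 and 1.68 for EXPB5, and 1.42 and 0.18 for EXPA8. As neither 22 h group overlapped the untreated arrays for these genes, all values had to be above 0. All were larger on the first of these days. Single arrays also decided some of the calls. The OPDA 22 h call of EXPA8 was lost without untreated replicate 1 (change 0.51, limma adjusted p = 0.3) or 2 (0.90, adjusted p = 0.099), or OPDA 22 h replicate 2 (0.70, adjusted p = 0.23) or 3 (0.90, adjusted p = 0.065). That of EXPB5 was lost without the same 4 arrays (changes of 2.42, 1.67, 1.86 and 2.11, adjusted p = 0.095, 0.16, 0.18 and 0.074). The first of these calls also moved to an adjusted p of 0.052 or 0.053 without any of 8 arrays of other groups. Of the steps from 8 to 22 h, that of EXPA8 with JA was lost without JA 8 h replicate 1 (0.63, adjusted p = 0.16) or JA 22 h replicate 1 (0.88, adjusted p = 0.054) or 2 (0.71, adjusted p = 0.14). The EXPB5 step with OPDA was lost without OPDA 8 h replicate 1 (2.68, adjusted p = 0.26) or OPDA 22 h replicate 2 (2.75, adjusted p = 0.091), and in models that blocked on scan day (2.97, adjusted p = 0.086) or chip lot (2.88, adjusted p = 0.16). The JA 22 h calls of both genes held without any single array, with adjusted p up to 0.00086 for EXPB5 and 0.005 for EXPA8 over 42 alternatives.

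Pollen markers rose with the 2 expansins. Of 47 pollen markers listed, 16 were named on the array and all were tested. At 22 h of JA, 12 of 16 rose and 1 fell, with a median log2 change of 1.35, and at 22 h of OPDA 8 rose and none fell, with a median of 0.77. Over all tested probe sets 13.3% were called higher and 26.3% lower with JA and 5.70% higher with OPDA, and the medians were -0.21 and -0.09. Among those that rose with both agents were PLIM2a, an actin-bundling protein of pollen (log2 3.0 with JA and 2.25 with OPDA, limma adjusted p = 0.00045 and 0.021), and the pectate lyase-like AT59 (3.59 and 2.53, adjusted p = 5e-04 and 0.029). The OPDA calls of both were lost when any of untreated replicates 1 and 2 and OPDA 22 h replicate 2 was left out (adjusted p from 0.11 to 0.16), and that of AT59 also without OPDA 22 h replicate 3 (0.064) or with 1 in place of 16 added to the signals (0.088). AtVEX1, named for the vegetative cell of pollen, was the one that fell with JA (-1.30, adjusted p = 2.9e-05).

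The summed signal of the 16 markers was 5955.8 to 7173.2 untreated, 9832.4 to 16499.7 at 22 h of JA and 9702.7 to 15630.1 at 22 h of OPDA. At 8 h of JA it was 7023.6, 13015.3 and 6651.7, highest on the replicate 2 array on which EXPB5 read 543.9. In the remaining *opr3* groups it lay between 4735.0 and 8193.8, and on the Ws array it was 10789.9. The dimmest of the 16 untreated were PIPK11 and AGL29, with mean signals of 18.4 and 19.4, and none was at 0. Over the 26 distinct arrays, log2 EXPB5 and the log2 marker sum had a Pearson correlation of 0.89, and EXPA8 one of 0.75. EXPA4 gave -0.45 and EXPB3 -0.11. The arrays share treatment times and scaling, so these are descriptions only. The part of pollen RNA in the expansin changes was not tested.

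**Figure D3:**
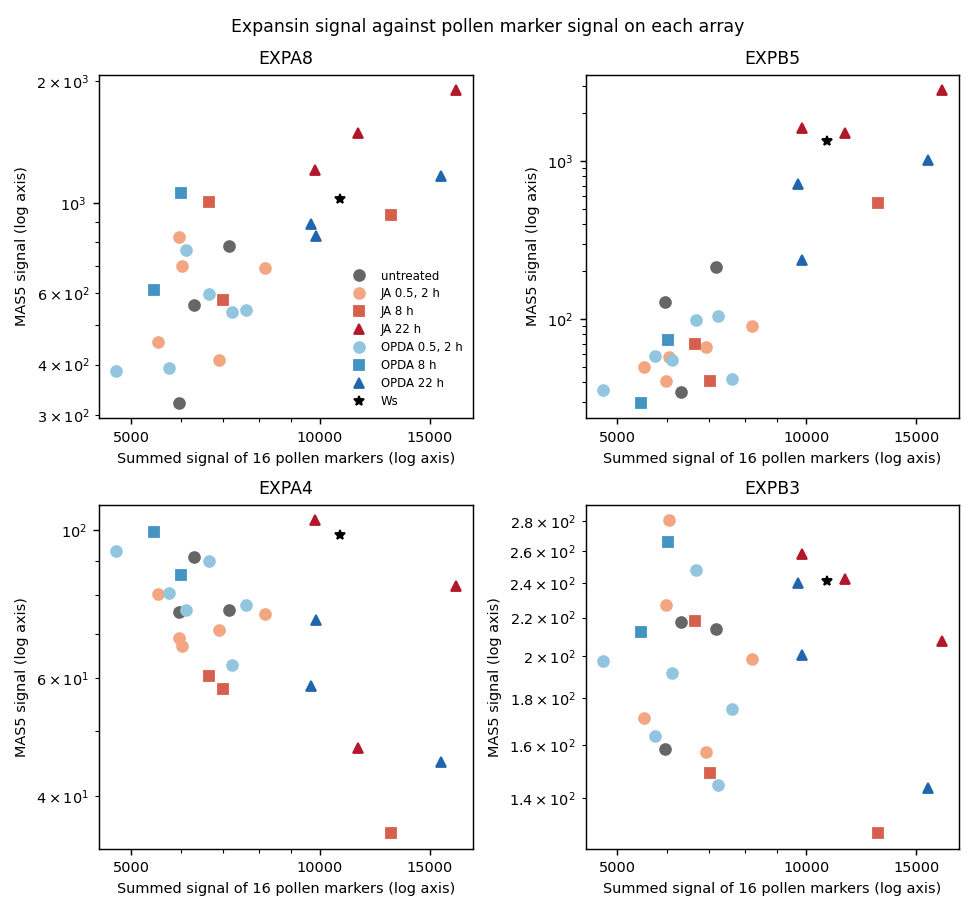
Signal of each expansin (log axis) against the summed signal of 16 pollen markers (log axis), 1 symbol per distinct array, coloured by group. The 22 h arrays, the Ws array and replicate 2 of JA at 8 h have the highest sums, and EXPB5 reads at least 236.9 on all of them.

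Other tissue markers moved as well. ATA27, the one tested of 2 tapetum markers on the array, fell at 22 h by 4.28 on the log2 scale with JA and by 3.68 with OPDA (limma adjusted p = 5.1e-05 and 0.0035). The summed tapetum signal was 182.1 to 707.9 untreated, 4.0 to 34.4 at 22 h of JA and 27.0 to 68.0 at 22 h of OPDA, while it was 873.9 on the Ws array. Of 4 green tissue markers 3 fell with JA and 1 with OPDA, and their sum was 2525.6 to 3386.6 untreated, 1718.8 to 1981.3 with JA and 2801.6 to 3223.6 with OPDA at 22 h. Their median log2 change was -0.75 with JA and 0.04 with OPDA. Over all tested probe sets 26.3% were called lower with JA and 5.91% with OPDA. The carpel marker SPT fell with JA (-0.75, adjusted p = 0.0029), and neither carpel marker was called with OPDA at 22 h. SPL fell to 2.1 to 3.4 at 22 h of JA and 3.3 to 32.8 at 22 h of OPDA. The part of these tissues in the expansin changes was not tested.

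Of the 15 other expansins on the array 8 were tested, and 4 of these were called in at least 1 comparison. No share of all probe sets called in at least 1 comparison is given here, and 22 h of JA over untreated alone called 39.6%. The 7 untested genes (EXPA7, EXPA20, EXPA21, EXPB2, EXLA3, EXLB1 and EXLB2) stayed at or below 45.1 on every array. At 22 h of JA, 2 of 8 rose and 1 fell (median 0.28), and at 22 h of OPDA 2 rose and 1 fell (median 0.08), beside medians of -0.21 and -0.09 over all tested probe sets. The share called over the whole array was 39.6% with JA, near that of these 8 genes, and 11.6% with OPDA. EXPA9, EXPA15, EXPA18 and EXPB1 were tested and called in no comparison.

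EXPA24 (AT5G39310), an alpha-expansin, had a pattern near that of EXPB5. Its untreated signals were 23.9, 15.9 and 51.1, its JA 22 h signals 246.1, 466.3 and 164.1, and its OPDA 22 h signals 61.1, 330.3 and 135.4. Both 22 h groups stood above the untreated one, with replicate 2 the brightest, and Ws gave 246.1. The limma changes over untreated were 2.69 with JA (SE 0.42, adjusted p = 3.8e-05) and 1.86 with OPDA (SE 0.42, adjusted p = 0.0097). The steps from 8 to 22 h were 2.27 and 2.03 (adjusted p = 0.00051 and 0.013). The OPDA change was not called when either of untreated replicates 1 and 2 was left out (adjusted p = 0.064 and 0.06), or replicate 2 of OPDA at 22 h (0.088). Nor was the OPDA step without either array of OPDA at 8 h or that same array (0.2, 0.082 and 0.099), or in models that blocked on scan day (0.069) or chip lot (0.11). In limma fits to the compared groups alone neither the OPDA change nor the OPDA step was called (adjusted p = 0.073 and 0.078).

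EXLA2 (AT4G38400), an expansin-like gene, rose at 22 h from untreated signals of 30.1, 22.5 and 30.1 to 93.3, 198.3 and 82.6 with JA and to 75, 73.4 and 86.6 with OPDA. The limma changes were 1.61 (adjusted p = 0.00013) and 1.12 (adjusted p = 0.016), and the groups did not overlap the untreated one. From 8 to 22 h of JA it rose by 0.94 (adjusted p = 0.021). It was also higher with JA than with OPDA at 2 h, with signals of 65.7, 74.6 and 41.6 against 23.2, 4.4 and 19.7 (log2 difference 1.3, adjusted p = 0.013). At 2 h the lowest JA array thus exceeded the highest OPDA array, and the Ws signal was 45.1. The OPDA 22 h call was lost when either of untreated replicates 1 and 2 was left out (adjusted p = 0.072 and 0.075), or replicate 2 of OPDA at 22 h (0.065), and the 2 h call without JA replicate 1 or 2 or OPDA replicate 2 (0.069, 0.083 and 0.13). The JA step was lost without JA 8 h replicate 1 or JA 22 h replicate 2 (0.12 and 0.2).

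EXLA1 (AT3G45970) was bright throughout, between 457.9 and 1009.7. At 2 h it was lower with JA (575.4, 491.9 and 496.4) than with OPDA (877.0, 818.4 and 931.9), by a log2 difference of -0.73 (limma adjusted p = 0.0078). At 22 h the order was the other way round, with 843.4, 823.8 and 661.8 for JA and 682.0, 493.8 and 457.9 for OPDA. That difference was 0.51 (adjusted p = 0.02), and the groups overlapped by 1 array of each. Untreated arrays read 942.5, 762.5 and 649.5, and the OPDA 22 h arrays overlapped them. EXLA1 fell with OPDA at 22 h over untreated (-0.52, adjusted p = 0.031) and over 8 h (-0.66, adjusted p = 0.023), and rose from 2 to 8 h of JA (0.58, adjusted p = 0.024). The 2 h difference held without any single array, but the other 4 calls were each lost without any of 4 arrays. Their adjusted p was then up to 0.2 for OPDA at 22 h over untreated, 0.11 for JA over OPDA at 22 h, 0.1 for JA from 2 to 8 h and 0.27 for OPDA from 8 to 22 h. The arrays were OPDA 22 h replicates 2 and 3 in each comparison with that group, joined by untreated replicates 1 and 2, JA 22 h replicates 1 and 2, or OPDA 8 h replicates 1 and 3. For the JA step they were JA 2 h replicates 2 and 3 and JA 8 h replicates 1 and 2. The OPDA step was also lost in models that blocked on scan day (0.055) or chip lot (0.11), the OPDA 22 h change over untreated with median centring (-0.42, adjusted p = 0.061), and with quantile normalization the 22 h difference (0.47, adjusted p = 0.05) and the JA step (0.52, adjusted p = 0.072). All 4 were lost in fits to the compared groups alone (adjusted p from 0.068 to 0.17).

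EXPA16 (AT3G55500) fell with JA. Its untreated signals of 50.1, 78.3 and 57.9 compare with JA signals of 60.4 and 80.5 at 0.5 h, 24.4, 31.0 and 36.1 at 2 h, 31.6, 20.4 and 23.2 at 8 h and 9.7, 27.3 and 30.3 at 22 h. No JA array from 2 h on reached the untreated range. OPDA arrays at 2 h read 27.1 to 50.9 (mean 42.4), overlapping both the untreated and the JA 2 h arrays, and the agents were not called apart at that time. The limma change was -0.74 at 2 h (adjusted p = 0.19, not called), -0.92 at 8 h (adjusted p = 0.02) and -1.05 at 22 h (adjusted p = 0.0021). OPDA arrays read 64.6, 30.3 and 36.2 at 22 h, overlapping the untreated and JA groups (-0.41 over untreated, adjusted p = 0.31), and Ws gave 17.0. The difference between the agents at 22 h was -0.64 and was not called (adjusted p = 0.082). At 8 h it was lower with JA than with OPDA, whose arrays read 71.3 and 61.2 (difference -1.01, adjusted p = 0.028). From 2 h on all JA signals were below the arrays' medians, where the added 16 shortens a fold change. The 8 h call was lost when untreated replicate 2 was left out (adjusted p = 0.11), and when replicate 2 or 3 of JA at 8 h was (0.091 and 0.058). The difference from OPDA was lost without JA 8 h replicate 2 or 3 or either OPDA 8 h array (0.11, 0.06, 0.24 and 0.097). It was not called either in models that blocked on scan day (0.29) or chip lot (0.25).

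**Figure D4:**
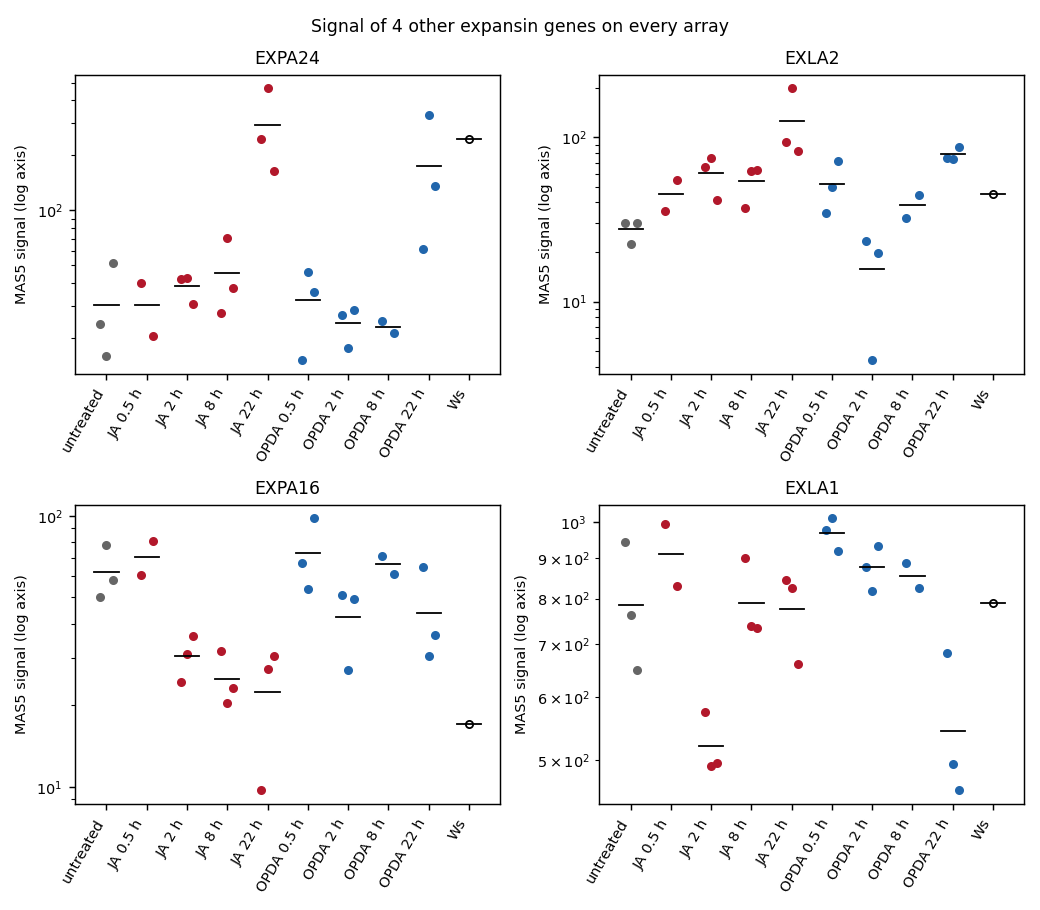
MAS5 signal (log axis) of EXPA24, EXLA2, EXPA16 and EXLA1, the 4 other expansins called in any comparison, on every distinct array by group (grey untreated *opr3*, red JA, blue OPDA, open circle Ws), with a bar at each group's mean. EXPA24 and EXLA2 are high at 22 h with both agents, and EXLA1 is lower with JA than OPDA at 2 h. EXPA16 is low at 2, 8 and 22 h of JA and on Ws, and less so at 2 and 22 h of OPDA.

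Genes for other wall-modifying proteins were searched for by gene symbol, which found few. Genes that the annotation gives only by a locus code, such as AT3G06830 below, were not sorted into these classes. Of 10 xyloglucan endotransglucosylase/hydrolase (XTH) genes, whose enzymes cut and rejoin xyloglucan, 4 were tested. XTH27 rose at 8 h of JA from a mean of 175 ± 24.1 to 324 ± 44.9 (SD, n = 3 each), a log2 rise of 0.83 (limma adjusted p = 0.0071), and fell again from 8 to 22 h (-0.96, adjusted p = 0.0012). Of 3 pectin methylesterases found by symbol, 1 was tested, and other members of this class may be on the array. PME61 was lower at 22 h of JA than untreated (mean 48.7 ± 7.75 against 117 ± 15.95, SD, n = 3 each, -1.04, adjusted p = 4.3e-05) and than at 22 h of OPDA (-1.05, adjusted p = 6.3e-05), and it fell from 8 to 22 h of JA (-0.54, adjusted p = 0.023). That last call was lost when replicate 1 or 3 of JA at 8 h was left out (adjusted p = 0.054 and 0.089), or replicate 1 of JA at 22 h (0.11). It was also lost in a limma fit to the compared groups alone (adjusted p = 0.054). No plasma membrane proton pump and no SAUR gene was named on the array, so these classes were not analysed here.

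The probe sets most like each expansin were ranked by Pearson's correlation of group means over the 10 groups, among 1599 candidates that spanned at least 1 log2 unit. For EXPB5 they were AT3G06830 (0.998), AT3G54240 (0.996) and AT1G22200 (0.996). AT3G06830 had mean signals of 99.8 untreated, 1426 at 22 h of JA and 546 at 22 h of OPDA, and 1049 on Ws, the same order of groups as EXPB5. For EXPA8 they were AT3G30380 (0.950), AT1G70720 (0.946) and AT3G07010 (0.943). By the same kind of mean, AT3G07010 read 312 untreated, 771 at 22 h of JA and 438 at 22 h of OPDA. The nearest to EXPB3 was another expansin, EXPA15 (AT2G03090), at 0.781, followed by AT2G25460 (0.741) and AT1G76020 (0.719). The nearest to EXPA4 were AT4G18280 (0.885), DD46 (0.843) and SCPL45 (0.821). EXPA4 and EXPB3 were called in no comparison of the model as reported, so their rankings rest on small differences between group means. These correlations carry no test. With 1 strong step at 22 h in EXPB5, any gene with that step ranks near the top, and the arrays of a group are shared by all genes compared. Across the 26 distinct arrays, log2 EXPA8 and EXPB5 correlated at 0.75, EXPA4 and EXPB3 at 0.47, and EXPB3 and EXPB5 at 0.13.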

How the data were processed

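Stamen RNA was measured on 27 1-colour Affymetrix ATH1 arrays. The authors deposited linear MAS5 signals, an intensity for each probe set, globally scaled to a target of 125 per the labels, and MAS5 is also named in the submitters' processing notes. The software version and detection calls are not given in the sources used here. Scan day (5 days) and chip lot (3 lots) came from the deposited array records, which were not used for OPDA at 8 h replicate 1 and Ws, so fits with these blocks dropped that OPDA array.

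Probe sets reaching 50 on 2 or more distinct arrays (14028 of 22810) entered the test as log2(signal + 16). The tools were R 4.3.3, limma 3.58.1 (lmFit, contrasts, eBayes with an intensity trend) and python 3.11.15. The 25 distinct *opr3* arrays in 9 groups left 16 residual degrees of freedom. The 16 comparisons were each agent over untreated, JA over OPDA, and later over earlier times. The Ws array stayed outside. Precision is set by how many arrays there are: the median half-width of the 95% intervals was 0.37 for 3 arrays against 3. The model was tested on simulated data.

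Names came from the platform's annotation (13513 probe sets with 1 gene, 503 with several, 8794 with none) and RefSeq, which matched 13436. The 4 expansins and the gene lists were chosen with earlier results of these data known. The 4 are named throughout, other expansins where called in any comparison, and XTH and pectin methylesterase genes where called, up to 4 per comparison. Markers are examples from their lists, and AtVEX1 was singled out after its value was seen.

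Replicate numbers paired the arrays in 4 of 16 comparisons, judged by the correlation of same-numbered arrays' deviations from their group means (every pair over 0.1, with 3 pairs): JA over OPDA at 2 h and at 22 h, and JA 8 h over 2 h and 22 h over 8 h. Other settings tried were a pseudocount of 1 or 64, a filter at a mean of 100 or none, quantile, 75th percentile and median scaling, the compared groups alone, blocks of replicate number, scan day and chip lot, no trend, array weights, a 2-fold minimum, the identical arrays kept apart, and each array left out.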

Additional observations from a re-analysis of the deposited data

Results flagged for a closer look

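Among the tested expansins, XTH genes and pectin methylesterases, the change after JA differed from the change after OPDA at the same time, by the limma test of the difference itself, in 5 cases. At each time the tests covered EXPA4, EXPA8, EXPB3 and EXPB5. They also covered 8 other expansins, 4 XTH genes and 1 pectin methylesterase, all found by gene symbol. Over all tested probe sets, 0.0713%, 1.9%, 7.81% and 18.7% were called between the agents at 0.5, 2, 8 and 22 h, so the 5 cases are described gene by gene. EXLA1 was lower with JA than with OPDA at 2 h (log2 difference -0.73, adjusted p = 0.0078) and higher at 22 h (0.51, adjusted p = 0.02). EXLA2 was higher with JA at 2 h (1.3, adjusted p = 0.013). EXPA16 was lower with JA at 8 h (-1.01, adjusted p = 0.028), and PME61 at 22 h (-1.05, adjusted p = 6.3e-05). With scan day as a block, which held 1 OPDA array at 8 h, the EXPA16 difference was -0.85 and was not called (adjusted p = 0.29). None of EXPA4, EXPA8, EXPB3 and EXPB5 was called in these comparisons in the model as reported, and some alternative settings with and without a block called one or more of them.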

How the results depend on the processing

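The counts of called expansins, of 4, at 22 h of JA over untreated and at 0.5 and 2 h kept to the reported value in every alternative run. At 22 h of OPDA over untreated the count of 2 became 1 with no filter or a 2-fold minimum, and 0 in a fit to those groups alone or without replicate 2 of JA 8 h, JA 22 h and OPDA 22 h, an alternative chosen after seeing the data. For JA over OPDA at 22 h the count of 0 became 1 with a pseudocount of 64, a block for scan day or for chip lot, array weights, those groups alone, that same omission or the duplicated array on its other scan day. It became 2 with the replicate block, also with the duplicated array as number 2. The last scan day and number settings were chosen after seeing the data too. For JA over OPDA at 8 h it became 1 with the identical arrays kept apart. From 8 to 22 h the JA count of 2 became 1 with a 2-fold minimum, those groups alone or that omission, and 3 with 75th percentile scaling, the replicate block (either number) or a block for scan day (either day), and the OPDA count of 1 became 0 with a block for scan day (either day) or chip lot. Leaving out each array gave 0 to 1 for JA 8 h over untreated, 0 to 2 for OPDA 22 h over untreated, 0 to 2 for JA over OPDA at 8 h, 0 to 1 for JA over OPDA at 22 h, 1 to 3 for JA 22 h over 8 h and 0 to 1 for OPDA 22 h over 8 h. Where a group was left with 1 array, that array was assumed to vary like the other groups. No called change reversed. In comparisons not counted as paired by replicate number, the replicate block changed no call of the 4. Comparisons with only 2 pairs were among them, and there same-numbered arrays could still deviate together. Their correlations were 0.38 to 0.41 for OPDA 22 h over 8 h, but 0.09 to 0.441 for JA over OPDA at 0.5 h. In the paired comparisons the replicate block changed only EXPB5, EXPA8 and EXPB3 as reported. Some of these fits held fewer arrays or another number of probe sets, and the cause of the shifts was not tested. The 3 arrays of a group, the dimness of EXPB5 before 22 h and the missing mock treatment limit all comparisons.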

Other observations

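The arrays of replicate number 2 stood out together at 22 h, which was noticed after the values were seen. EXPB5, EXPA8, EXPA24 and the summed pollen markers were each highest on replicate 2 with JA (2808.2, 1898.9, 466.3 and 16499.7) and also with OPDA (1021.6, 1168.7, 330.3 and 15630.1). All of these arrays were scanned on day 4. That day also held untreated replicates 1 and 2, on which EXPB5 read 127.5 and 34.6. It further held replicate 2 of JA at 2 and 8 h (EXPB5 at 90.5 and 543.9) and of OPDA at 2 h (41.7). EXPB3 was lowest on replicate 2 in both 22 h groups (207.4 and 143.5) and at 8 h of JA (128.4).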
